A study of Homo sapiens with 14 samples.

Results

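The 10 core genes of the integrated stress response described here are ATF4, ATF3, ATF5, DDIT3, TRIB3, CHAC1, ASNS, CEBPB, PPP1R15A and NUPR1. They were taken by gene symbol as the transcription factor ATF4 together with its best known stress targets and partners, and they are 10 of 27142 genes in the count table. Messenger RNA was sequenced from IMR90, a human cell line of fetal lung fibroblasts, labelled wild type. The drug, 2',3'-dideoxycytidine (ddC) at 20 uM, was given for 24, 48, 72 or 96 h (3 libraries per time), and the comparison group was 2 untreated libraries. ddC is a chain-terminating nucleoside analog that blocks the copying of mitochondrial DNA. The untreated libraries are given as 0 h in the study's design text, whereas the sample labels give water as vehicle for 4 days, which leaves their time in culture uncertain.

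The integrated stress response starts when one of a family of kinases phosphorylates the translation factor eIF2alpha. General protein synthesis then slows, while the ATF4 transcript, which carries upstream open reading frames, is translated more. ATF4 protein is therefore set largely at translation, and the messenger RNA of its target genes is a common readout of the pathway. In fibroblasts and other cultured cells the response is known from amino acid shortage, endoplasmic reticulum stress and mitochondrial inhibitors, the last through the protease OMA1, its substrate DELE1 and the kinase EIF2AK1.

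Libraries held between 9398703 and 12147402 counts, and all 10 genes passed the filter on low counts, with 13371 genes tested in all. Expression is given in CPM, the counts of a gene scaled to a common library total with TMM factors. Changes are fitted log2 fold changes with their SE from edgeR's quasi-likelihood test, with n = 3 treated libraries and n = 2 untreated libraries unless other groups are named. Calls required an adjusted p under 0.05, with Benjamini-Hochberg adjustment over all genes tested. An index was also taken of the reads on weakly expressed genes that overlap an abundant gene on the opposite strand. The libraries were divided into 2 sets at its largest gap, a rule that gives 2 sets with any values. What the index reflects was not tested. This index was 1.06 to 1.16 per 1000 reads of the abundant genes in 48 h replicate 3 and all libraries at 72 h and 96 h, and 0.782 to 0.931 in the untreated libraries, all libraries at 24 h and 48 h replicates 1 and 2. The contrasts of 72 h and 96 h against untreated cells, and of 96 h against 24 h, therefore also set these library sets against each other, whereas 24 h against untreated and 96 h against 72 h lie within 1 set. The nuclear transcript MALAT1 varied from 52.4 to 408 CPM (of raw totals) over all libraries, and from 53.0 to 357 CPM among those at 24 h alone.

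After 96 h of ddC, 6 of the 10 genes were higher than in untreated cells and none was lower. ATF3 had the largest change, at 2.13-fold, followed by TRIB3 at 1.54-fold, CHAC1 at 1.48-fold, NUPR1 at 1.38-fold, ASNS at 1.33-fold and ATF4 itself at 1.25-fold. DDIT3, CEBPB, ATF5 and PPP1R15A did not pass. Over all tested genes, 3.57% were called higher and 2.11% lower in this comparison (5.68% in either direction). The median log2 fold change of the 10 genes was 0.42, against 0.00 over all tested genes, and 9 of the 10 lay above 0. The 3 libraries at 96 h lay above both untreated libraries for 8 of the 10 genes, which was so for 20.6% of all tested genes (40.3% lay apart in either direction).

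At the earlier times edgeR called none of the 10 genes. The median of their log2 fold changes was 0.14 at 24 h, 0.06 at 48 h and 0.22 at 72 h, and 9, 6 and 8 of them lay above 0. At an unadjusted p under 0.05, edgeR gave 457 genes of the whole table at 24 h, 804 at 48 h and 968 at 72 h. The shares of all tested genes called were 0% at 24 h, 0.00748% at 48 h, all of it higher, and 0.179% at 72 h, with 0.142% higher and 0.0374% lower. All treated libraries lay above both untreated ones for 4 of the 10 genes at 24 h, 3 at 48 h and 6 at 72 h, against 7.8%, 11.7% and 12% of all tested genes. At 72 h, DESeq2 called CHAC1 alone among the 10 (54 genes in all) and gave ATF3 no adjusted p. There limma-voom called 0 of the 10 (23 genes in all). At 24 h and 48 h both of these tools called 0 of the 10.

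**Figure D1:**
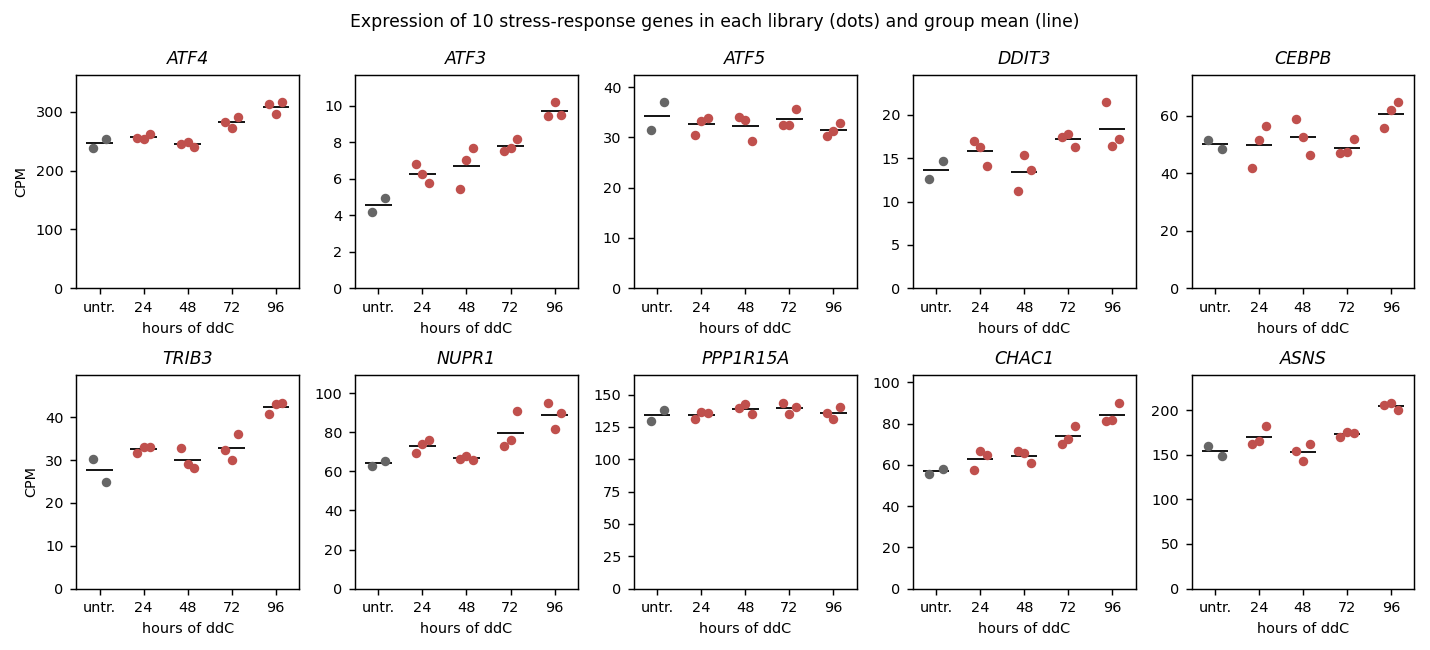
Expression of each of the 10 genes in CPM (vertical axes, starting at 0) in every library, by group (untreated, then 24, 48, 72 and 96 h of ddC). Dots are libraries and lines are group means. ATF3 and CHAC1 stand higher at each later mean, ATF4, TRIB3 and ASNS reach their highest values at 96 h, and ATF5 and PPP1R15A stay within 29.3 to 36.9 CPM and 129 to 144 CPM.

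Among the transcription factors, ATF4 (NM_001675; hg19 chromosome 22, 39916564 to 39918691) was the most abundant of the 10 genes. It had 239 and 254 CPM in the untreated libraries, 255, 253 and 262 CPM at 24 h, 245, 248 and 240.4 CPM at 48 h, 282, 273 and 291 CPM at 72 h, and 312, 296 and 316 CPM at 96 h. The libraries at 24 h and 48 h overlapped the untreated ones, those at 72 h lay just above them, and those at 96 h lay above every other library. ATF4 rose at 96 h by 0.32 ± 0.06 (adjusted p = 0.00114), and at 72 h its value was 0.19 ± 0.06 (adjusted p = 0.246). Without untreated replicate 1 the 96 h value was 0.28 and the call was lost, whereas the call held without untreated replicate 2.

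ATF3 (NM_001040619; hg19 chromosome 1, 212781970 to 212794119) is a stress-inducible factor of the ATF/CREB family that often acts as a repressor. It was the least abundant of the 10, with 48 and 56 reads in the untreated libraries and 109, 117 and 113 reads at 96 h. In CPM it had 4.16 and 4.94 in untreated libraries, 6.81, 6.23 and 5.74 at 24 h, 5.43, 7.04 and 7.70 at 48 h, 7.49, 7.68 and 8.15 at 72 h, and 9.42, 10.2 and 9.51 at 96 h. Every treated library lay above both untreated ones, and the 96 h libraries lay above all others. The log2 fold change was 0.46 ± 0.17 at 24 h, 0.57 ± 0.17 at 48 h, 0.77 ± 0.17 at 72 h (adjusted p = 0.0597) and 1.09 ± 0.17 at 96 h (adjusted p = 0.000321). The 96 h call held without any 1 library (adjusted p at most 0.0192).

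DDIT3 (NM_001195056; hg19 chromosome 12, 57910371 to 57914300) encodes CHOP, a C/EBP-family factor linked to cell death under prolonged stress. It had 12.6 and 14.7 CPM in untreated libraries, 17.5, 17.7 and 16.3 CPM at 72 h, and 21.4, 16.4 and 17.2 CPM at 96 h. All 96 h libraries lay above the untreated ones, but replicate 1 stood apart from the other two. Its log2 fold change at 96 h was 0.43 ± 0.14 (adjusted p = 0.0768), which did not pass. DDIT3 overlaps MARS, at 227 to 272 CPM on the other strand, by 67 bases, and the strand setting of the counting is not given in the sources used here.

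CEBPB (NM_001285879; hg19 chromosome 20, 48807120 to 48809227), a C/EBP factor that pairs with ATF4, spread widely within groups. It had 55.7, 62.1 and 64.7 CPM at 96 h, against 51.5 and 48.6 CPM in untreated cells, a log2 fold change of 0.28 ± 0.11 (adjusted p = 0.160). At 24 h its libraries ran from 41.7 to 56.5 CPM, on either side of both untreated libraries. CEBPB overlaps CEBPB-AS1 on the other strand, which had at most 1.56 CPM.

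ATF5 (NM_012068; hg19 chromosome 19, 50431959 to 50437193) is a relative of ATF4 that, like it, is regulated through upstream open reading frames and has been linked to the mitochondrial unfolded protein response. It had 30.3, 31.3 and 32.8 CPM at 96 h, against 31.5 and 36.9 CPM in untreated cells, and the groups overlapped. Its log2 fold change was -0.12 ± 0.09 at 96 h (adjusted p = 0.516), and its values at the other times lay between -0.08 and -0.03. ATF5 overlaps NUP62 by 829 bases and IL4I1 by 837 bases on the other strand, and NUP62 stood at 104 to 128 CPM.

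Among the regulators that feed back on the response, TRIB3 (NM_021158; hg19 chromosome 20, 361273 to 378203) encodes a pseudokinase induced by ATF4 and CHOP. It had 30.3 and 24.9 CPM in untreated libraries, 31.7, 33.1 and 33.0 CPM at 24 h, 32.8, 29.1 and 28.3 CPM at 48 h, 32.4, 29.9 and 36.2 CPM at 72 h, and 40.8, 43.2 and 43.4 CPM at 96 h. Libraries at 48 h and 72 h overlapped the untreated ones, those at 24 h lay above them by a small margin, and those at 96 h lay above all others. TRIB3 rose at 96 h by 0.62 ± 0.10 (adjusted p = 0.000501), a call that held without any 1 library (adjusted p at most 0.0442).

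NUPR1 (NM_001042483; hg19 chromosome 16, 28548662 to 28550495) encodes a small stress-inducible chromatin-associated protein. It had 62.9 and 65.6 CPM in untreated libraries, 69.5, 74.2 and 76.2 CPM at 24 h, 66.3, 68.2 and 65.7 CPM at 48 h, 72.9, 76.2 and 90.8 CPM at 72 h, and 95.2, 81.6 and 89.8 CPM at 96 h. Every treated library lay above both untreated ones, though those at 48 h only narrowly, and replicate 3 at 72 h overlapped the 96 h libraries. NUPR1 rose at 96 h by 0.47 ± 0.09 (adjusted p = 0.00186, and at most 0.0484 without any 1 library).

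PPP1R15A (NM_014330; hg19 chromosome 19, 49375649 to 49379319) encodes GADD34, the inducible subunit of the phosphatase that reverses eIF2alpha phosphorylation. It had 136, 131 and 141 CPM at 96 h, against 129 and 138 CPM in untreated cells. The groups overlapped at every time, and its log2 fold changes lay between 0.01 and 0.06 (0.02 ± 0.06 at 96 h, adjusted p = 0.886).

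The remaining 2 genes encode enzymes. ASNS (NM_183356; hg19 chromosome 7, 97481429 to 97501854) is asparagine synthetase, a standard marker of the amino acid response. It had 160.2 and 148 CPM in untreated libraries, 163, 166 and 182 CPM at 24 h, 154, 144 and 162 CPM at 48 h, 169.7, 176 and 174 CPM at 72 h, and 205, 208 and 200.1 CPM at 96 h. The 48 h libraries spanned the untreated ones, those at 24 h and 72 h lay above them, and the 96 h libraries lay above all others. ASNS rose at 96 h by 0.41 ± 0.07 (adjusted p = 0.000609, and at most 0.0387 without any 1 library). GENCODE release 29 lists 4 pseudogenes each under the names of ATF4 and ASNS, and how reads shared with such copies were counted is not given in the sources used here.

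CHAC1 (NM_024111; hg19 chromosome 15, 41245347 to 41248717) encodes an enzyme that breaks down glutathione. It had 55.7 and 58.2 CPM in untreated libraries, 57.3, 66.8 and 64.6 CPM at 24 h, 66.9, 65.6 and 61.0 CPM at 48 h, 70.2, 72.7 and 78.7 CPM at 72 h, and 81.3, 81.5 and 90.1 CPM at 96 h. From 48 h on all its libraries lay above the untreated ones, and the 96 h libraries lay above those at 72 h. CHAC1 rose at 96 h by 0.57 ± 0.08, the smallest adjusted p of the 10 (0.000131, and at most 0.00852 without any 1 library), and at 72 h it stood at 0.38 ± 0.08 (adjusted p = 0.0554).

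**Figure D2:**
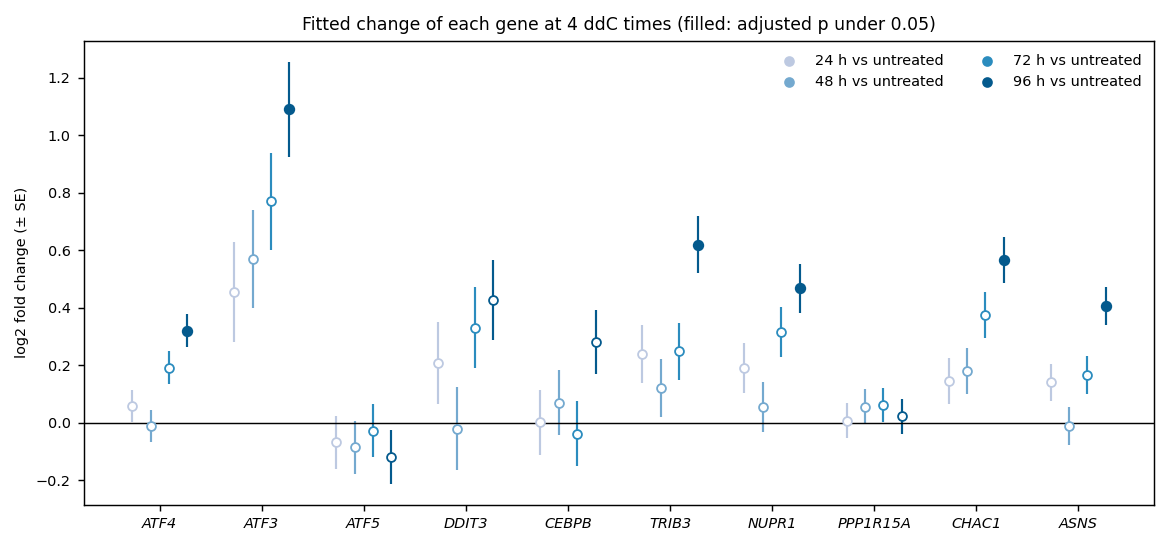
Fitted log2 fold change ± SE (vertical axis) of each gene at 24, 48, 72 and 96 h of ddC against untreated cells. Filled points have an adjusted p under 0.05. All 6 filled points are those of 96 h, from 0.32 (ATF4) to 1.09 (ATF3).

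The promoters of these genes were read for the composite element of C/EBP and ATF factors through which ATF4 is known to act on its targets, because most of the genes that rose are such targets. RefSeq promoter sequence (GRCh38.p14) was at hand for 9 of the 10 genes, all but NUPR1. The letters TGATGNAA were searched on both strands (TTNCATCA on the minus strand) in the 250 bases before each listed start. They were present for ATF3, CHAC1 and ASNS, or 3 of 9 genes, and for 3.89% of 27305 genes with a listed promoter. The full cyclic AMP response element TGACGTCA, a letter run for ATF and CREB factors, was present for PPP1R15A alone of the 9 and for 2.03% of all genes. The letter runs cannot match at the same bases. A match describes the letters and is not a shown binding site. The stretches around each match are given 5′ to 3′ on the strand of the gene, with the match in capitals. They lie at chr1:212565186-212565253 (ATF3, 1 of 2 listed starts), chr15:40953232-40953299 (CHAC1), chr7:97872439-97872506 (ASNS, minus strand, 1 of 2 listed starts) and chr19:48872333-48872400 (PPP1R15A), all on GRCh38.p14, whereas the gene positions given above are on hg19.
ATF3: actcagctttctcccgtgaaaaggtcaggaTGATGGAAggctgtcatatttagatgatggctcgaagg
CHAC1: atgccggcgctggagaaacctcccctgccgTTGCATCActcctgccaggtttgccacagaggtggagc
ASNS: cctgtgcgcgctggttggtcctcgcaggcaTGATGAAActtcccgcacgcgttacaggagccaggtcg
PPP1R15A: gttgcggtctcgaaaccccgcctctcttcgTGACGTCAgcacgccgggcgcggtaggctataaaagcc
The match began 191 bases before the start in ATF3, 209 bases before it in CHAC1, 68 bases before it in ASNS and 58 bases before it in PPP1R15A. In CHAC1 it lay on the strand opposite to the gene. Promoters were taken by gene symbol, so the matched start of ATF3 or ASNS need not be that of the counted transcript. ATF3, CHAC1 and ASNS were called higher at 96 h, and PPP1R15A was not. TRIB3, ATF4, ATF5, DDIT3 and CEBPB had neither run of letters in this window. Of these, TRIB3 and ATF4 were also called higher at 96 h, and ATF5, DDIT3 and CEBPB were not. Whether the letters go with the rise was not tested.

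The comparison of 96 h with 24 h asks whether expression moved within the exposure, and it does not use the untreated libraries as a group. It shares the 96 h libraries with the comparison against untreated cells, so the calls of both are not independent. No untreated libraries are labelled 24 h or 72 h, so hours of ddC and any change with time in culture cannot be told apart. ATF4, ATF3, TRIB3, CHAC1, ASNS and NUPR1 were called higher, against 2.58% of all tested genes called higher and 0.621% called lower (3.2% in either direction). CHAC1 was higher at 96 h by 0.42 ± 0.07 (adjusted p = 0.000830), ATF4 by 0.26 ± 0.05 (0.00303), ASNS by 0.27 ± 0.06 (0.0113), ATF3 by 0.63 ± 0.14 (0.0116), TRIB3 by 0.38 ± 0.09 (0.0145) and NUPR1 by 0.28 ± 0.08 (0.0478), with n = 3 libraries at each time. CEBPB stood at 0.28 ± 0.10, DDIT3 at 0.22 ± 0.12, PPP1R15A at 0.02 ± 0.05 and ATF5 at -0.05 ± 0.08, and none of these passed. The count was 3 without 24 h replicate 1, where TRIB3, ASNS and NUPR1 lost their calls (adjusted p at most 0.233 for NUPR1 over all libraries left out). TRIB3 also lost it without 96 h replicate 2 or 3 (at most 0.0655), ASNS without 96 h replicate 1 (at most 0.0663), ATF3 without 96 h replicate 2 (0.0520), and NUPR1 without any 1 of 10 of the 14 libraries.

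Between 72 h and 96 h, within 1 library set, none of the 10 genes passed in edgeR, where 0.456% of all tested genes were called higher, 0.0598% lower, and 1544 genes had an unadjusted p under 0.05. DESeq2 called TRIB3 and ASNS (125 genes in all) and gave ATF3 and DDIT3 no adjusted p, and limma-voom called TRIB3 alone (79 genes in all). TRIB3 stood at 0.37 ± 0.09 (adjusted p = 0.0528), ASNS at 0.24 ± 0.06 (0.0638), CEBPB at 0.32 ± 0.10 (0.208) and ATF3 at 0.32 ± 0.13 (0.362). For 6 of the 10 genes all 96 h libraries lay above all 72 h libraries, which was so for 9.26% of all tested genes.

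**Figure D3:**
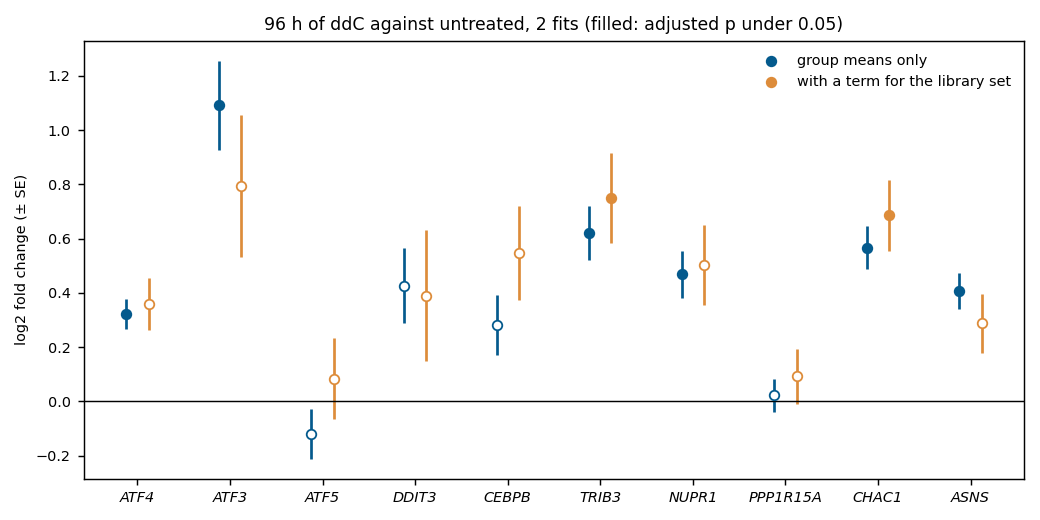
Log2 fold change ± SE (vertical axis) of each gene at 96 h against untreated cells, in the fit with group means only (blue) and with a term for the library set added (orange). Filled points have an adjusted p under 0.05: 6 genes without the term, and TRIB3 and CHAC1 with it.

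When a term for the library set was added, which rests on 48 h replicate 3 as the only link between set and time, 2 of the 10 genes were called at 96 h against untreated cells, and both of them, TRIB3 (0.75 ± 0.17, adjusted p = 0.0376) and CHAC1 (0.69 ± 0.13, 0.0152), were among the 6. The others of the 6 stood at 0.36 ± 0.10 for ATF4 (adjusted p = 0.0906), 0.79 ± 0.26 for ATF3 (0.170), 0.50 ± 0.15 for NUPR1 (0.121) and 0.29 ± 0.11 for ASNS (0.230). All 6 kept their sign, and their SEs were wider. Over all tested genes, 121 were called with the term and 759 without it. For 96 h against 24 h, 0 of the 10 genes were called with the term by edgeR, and CHAC1 came nearest at 0.54 ± 0.13 (adjusted p = 0.0752).

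Set against gene length, ATF4 had the highest level at 96 h, with a mean of 152 CPM per kb, followed by NUPR1 at 98.0, ASNS at 87.4, PPP1R15A at 57.1, CHAC1 at 45.7 and CEBPB at 28.9. TRIB3 (17.1), DDIT3 (15.6) and ATF5 (13.9) came next, where DDIT3 overlapped both TRIB3 and ATF5, while TRIB3 lay above ATF5 in all 96 h libraries. ATF3 was lowest at 4.08. In untreated cells the first 6 genes had the same order, from 122 CPM per kb for ATF4 to 23.8 for CEBPB, and ATF3 was again lowest at 1.91. ATF5 (15.1 CPM per kb) lay above DDIT3 (11.6) and TRIB3 (11.1) in untreated cells, and DDIT3 and TRIB3 overlapped.

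The rest of the pathway was read from lists of other genes. Over all tested genes, 3.57% were called higher and 2.11% lower at 96 h against untreated cells. For 96 h against 24 h these shares were 2.58% and 0.621%. Upstream of ATF4, none of 22 genes of the eIF2alpha kinases, their substrate, its phosphatase and the exchange factor eIF2B was called at 96 h against untreated cells by edgeR, and their median log2 fold change was -0.03. The 4 kinases were close to 0: EIF2AK1, the heme-regulated kinase, stood at 0.07 ± 0.06, EIF2AK2, the double-stranded RNA kinase, at -0.03 ± 0.08, EIF2AK3, the endoplasmic reticulum kinase PERK, at -0.11 ± 0.10 and EIF2AK4, the amino acid sensor GCN2, at -0.01 ± 0.06. OMA1 stood at -0.16 ± 0.16, and KIAA0141, the symbol of DELE1 in the table, at 0.02 ± 0.10. The smallest p in this list was that of DNAJC3, an inhibitor of eIF2alpha kinases, at -0.18 ± 0.07 (adjusted p = 0.152). These are transcript levels, and kinase activity was not measured.

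Among 16 tested partners and regulators of ATF4, 2 rose and 1 fell, against 3.57% of all tested genes called higher and 2.11% lower. CEBPD, a C/EBP factor, averaged 52.3 ± 5.89 CPM at 96 h, against 30.5 ± 1.49 CPM in untreated cells (SD), a change of 0.78 ± 0.11 (adjusted p = 0.000276). It was also higher at 96 h than at 24 h (0.62 ± 0.10, adjusted p = 0.000748) and than at 72 h (0.45 ± 0.10, adjusted p = 0.0396, a call that ended without either of 72 h replicates 1 and 2 or any 1 of the 96 h libraries, at most 0.234). JDP2, a bZIP repressor, rose by 0.42 ± 0.09 (adjusted p = 0.00459). EP300, an acetyltransferase coactivator, was the gene that fell, at -0.37 ± 0.09 (adjusted p = 0.0180).

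Downstream, 8 of 14 amino acid synthesis and one-carbon genes rose at 96 h and none fell, against 3.57% and 2.11% of all tested genes. All 14 lay above 0, with a median of 0.29, and 49.2% of all tested genes did. CBS, the first enzyme of transsulfuration, averaged 111 ± 6.03 CPM at 96 h, against 71.6 ± 0.85 CPM in untreated cells (SD), a change of 0.64 ± 0.07 (adjusted p = 2.00e-05). It was the 1 gene of this list called at 72 h, at 0.41 ± 0.07 (adjusted p = 0.0184). PHGDH and PSAT1, the first 2 enzymes of serine synthesis, rose by 0.30 ± 0.06 and 0.34 ± 0.07. At 96 h against 24 h, 8 of the 14 were called higher, against 2.58% of all tested genes. Among the 8 were CBS (0.39 ± 0.07), the mitochondrial folate enzyme MTHFD2 (0.31 ± 0.07) and the alanine transaminase GPT2 (0.33 ± 0.07).

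Of 11 tested amino acid transporters 5 rose and 0 fell at 96 h against untreated cells, with a list median of 0.13. The shares of all tested genes called were 3.57% higher and 2.11% lower there, and 2.58% and 0.621% at 96 h against 24 h. The list was split, with 7 of 11 above 0. For 4 of the 11, all 96 h libraries lay below both untreated ones, and for 6 they lay above them. Of all tested genes, 20.6% lay above and 40.3% lay apart in either direction. The 5 that rose included SLC7A5, the leucine transporter LAT1 (0.40 ± 0.08), and the neutral amino acid carriers SLC1A4 (0.34 ± 0.07) and SLC1A5 (0.28 ± 0.06). Of 21 cytosolic tRNA synthetase and export genes 3 rose and 1 fell, with a median of 0.09. GARS, the glycine enzyme, rose by 0.28 ± 0.06 and SARS, the serine enzyme, by 0.23 ± 0.05, whereas VARS, the valine enzyme, changed by -0.28 ± 0.07 (adjusted p = 0.0241). At 96 h against 24 h, 4 of the 11 transporters were called higher, with SLC7A5 at 0.41 ± 0.07, SLC1A4 at 0.32 ± 0.06 and SLC1A5 at 0.26 ± 0.05, and these 3 calls held without any 1 library, but those of SLC1A4 and SLC1A5 were lost in the fit with the library set. GARS, at 0.21 ± 0.05, was the 1 tRNA synthetase gene called there, a call lost in 3 of 14 leave-outs (24 h replicate 2, 96 h replicates 1 and 2; 0.0997 at most) and in a fit of those groups alone.

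The list of other stress, growth and death targets had the most calls, with 12 of 24 tested genes rising and a median of 0.36. The share of all tested genes called higher was 3.57%, and it was 2.58% at 96 h against 24 h. DDIT4, an inhibitor of mTORC1 signalling, averaged 119 ± 7.76 CPM at 96 h, against 64.4 ± 2.52 CPM in untreated cells (SD), a change of 0.88 ± 0.08 (adjusted p = 6.96e-07). STC2, a secreted glycoprotein, rose by 0.55 ± 0.06 (adjusted p = 4.23e-06). STC2 was also the gene of this list with the smallest p at 72 h against untreated cells (0.29 ± 0.05, adjusted p = 0.0226), a call lost when either untreated library or one of 72 h replicates 1 and 3 was dropped (0.413 at most), or when those groups were fitted alone. GDF15, a stress-induced secreted factor, rose by 1.29 ± 0.14 (adjusted p = 2.34e-05). Against 24 h, 9 of the 24 genes were called higher at 96 h, with STC2 at 0.48 ± 0.05, DDIT4 at 0.65 ± 0.07 and NDRG1, a stress- and hypoxia-responsive gene, at 0.44 ± 0.06. Within the single library set of 72 h and 96 h, DDIT4 was higher at 96 h by 0.55 ± 0.07 (adjusted p = 0.000568) and NDRG1 by 0.43 ± 0.06 (0.000642), and both calls held without any 1 library (at most 0.0143). STC2 was higher there by 0.25 ± 0.05 (0.0150), a call lost in 4 of 14 leave-outs (72 h replicates 1 and 2, 96 h replicates 1 and 3; 0.127 at most). Several genes of this list, DDIT4, NDRG1 and GDF15 among them, are also known targets of hypoxia signalling or p53.

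Lists of neighbouring stress pathways were read at 96 h against untreated cells, where 5.68% of all tested genes were called. XBP1, a factor of the unfolded protein response, was the 1 of 16 genes of its ATF6 and XBP1 arms to rise (0.30 ± 0.07, adjusted p = 0.0135), with a list median of 0.06. HSPD1, a mitochondrial chaperonin, was the 1 of 12 mitochondrial chaperones and proteases called, at -0.29 ± 0.06 (adjusted p = 0.00896), with a median of -0.07. Among 14 immediate early genes, DUSP1, a phosphatase of MAP kinases, rose by 0.33 ± 0.07 and FOSL1, an AP-1 subunit, changed by -0.21 ± 0.06 (adjusted p = 0.0372). At 96 h against 24 h, XBP1 stood at 0.27 ± 0.06 (adjusted p = 0.0140), a call lost in 4 of 14 leave-outs (24 h replicates 1 and 2, 96 h replicates 2 and 3; 0.0743 at most) and in a fit of those groups alone, and DUSP1 stood at 0.35 ± 0.06 (adjusted p = 0.00138), and both calls were lost in the fit with the library set.

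**Figure D4:**
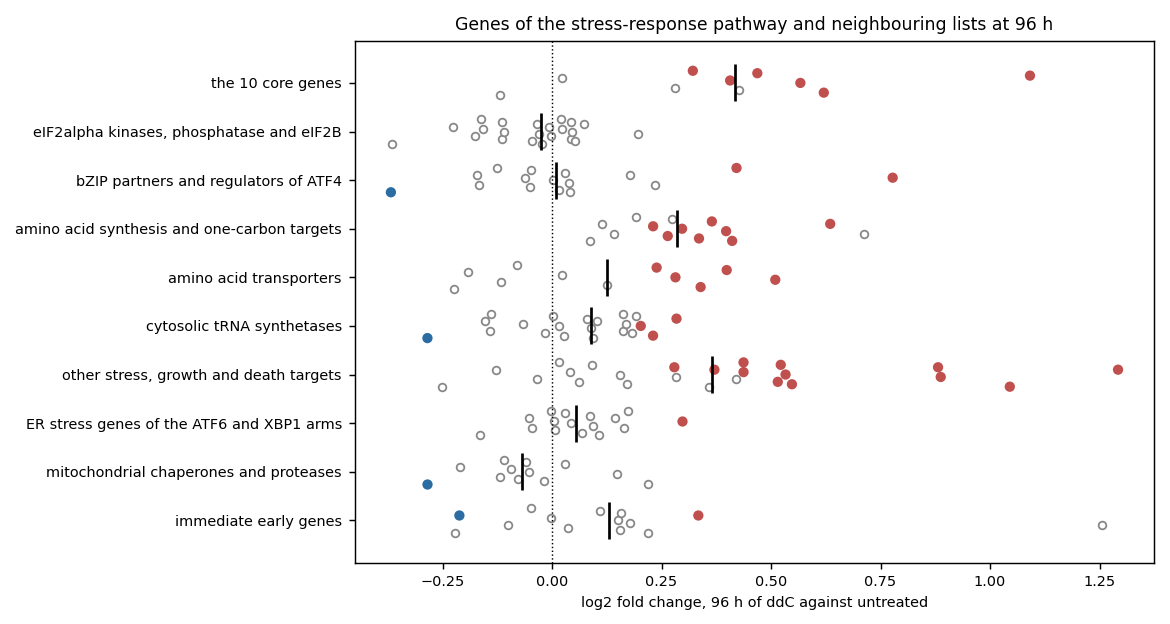
Log2 fold change at 96 h of ddC against untreated cells (horizontal axis) of every tested gene in 10 lists (rows). Red points were called higher, blue points lower, open points did not pass, and black bars are list medians. Medians run from -0.07 for mitochondrial chaperones and proteases to 0.42 for the 10 core genes.

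Leaving out an untreated library changed these list counts. Over all genes the calls were 759 with every library, 265 without untreated replicate 1, 174 without untreated replicate 2 and 121 in the fit with the library set, so the lists lost calls along with the whole table. Without untreated replicate 1 the calls were 5 for amino acid synthesis, 0 for transporters, 1 for tRNA synthetases and 11 for other targets, and without untreated replicate 2 they were 1, 2, 0 and 5. In the fit with the library set they were 2, 1, 0 and 6. CBS, DDIT4, STC2, GDF15 and CEBPD kept their calls at 96 h against untreated cells without any 1 library. PHGDH, PSAT1, GARS and DUSP1 lost theirs without untreated replicate 2 (adjusted p at most 0.174) and SLC7A5 without untreated replicate 1 (0.0590). JDP2, SLC1A4, SLC1A5 and HSPD1 lost theirs without either untreated library (at most 0.112). EP300, SARS, VARS, XBP1 and FOSL1 lost theirs without either untreated library or at least 1 of those at 96 h (at most 0.315), and FOSL1 also with no filter on low counts. The call of CBS at 72 h was lost when any of the untreated libraries, 72 h replicate 1 or 72 h replicate 3 was dropped (0.390 at most), or when those groups were fitted alone, and that of GPT2 at 96 h against 24 h without 96 h replicate 3 (0.0915). In the fit with the library set, CBS, SLC7A5, CEBPD, DDIT4, STC2 and GDF15 kept their calls at 96 h against untreated cells, and the other genes named from these lists with a call there, JDP2, EP300, PHGDH, PSAT1, SLC1A4, SLC1A5, GARS, SARS, VARS, XBP1, HSPD1, DUSP1 and FOSL1, lost theirs. At 96 h against 24 h, CEBPD, SLC7A5, STC2, DDIT4 and NDRG1 kept their calls in that fit, whereas CBS, MTHFD2, GPT2 and GARS lost theirs. At 72 h against untreated cells, CBS and STC2 lost their calls in that fit, where 0 of 13371 tested genes were called.

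The genes with the most similar profile over the 14 libraries were found by Pearson correlation of log2 CPM, as a description, for the 3 called members with the largest change. They were CPA4 (r = 0.93), OSBPL3 (0.92) and GADD45A (0.92) for ATF3, SERPING1 (0.94), LUM (0.94) and FKBP9 (0.94) for TRIB3, and FBLN1 (0.97), EPAS1 (0.97) and CNN2 (0.96) for CHAC1, out of 11990 genes compared. These libraries share groups, sets and scaling. All 9 genes were higher at 96 h than in untreated cells, from 0.23 ± 0.06 for FKBP9 to 1.11 ± 0.13 for SERPING1. Their choice by likeness to members called higher at 96 h favours such a rise, so it is no separate result.

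Markers of fibroblasts were abundant in every library, and their summed level was 38806 to 42153 CPM at 96 h, against 33114 to 33853 CPM in untreated cells. The share of all tested genes called higher at 96 h against untreated cells was 3.57%. COL1A2, LUM, THY1 and COL1A1 were called higher at 96 h, 4 of 7 markers, against 1 to 4 when 1 library was left out and 1 with the library set in the fit. LUM and THY1 lost their calls without untreated replicate 2 (at most 0.0853), and COL1A2, LUM and THY1 lost theirs in the fit with the library set. Of 4 epithelial markers, KRT18 and KRT8 were called higher (0.44 ± 0.09 and 0.55 ± 0.15), with a summed list level of 65.5 to 72.9 CPM at 96 h, against 50.8 to 51.8 CPM in untreated cells, while the defining marker CDH1 had 0 counts in all libraries. KRT18 lost its call without either untreated library, and KRT8 without untreated replicate 2, 96 h replicate 1 or 96 h replicate 3, with DESeq2 and with the replicate block, and both lost it in the fit with the library set. The summed endothelial markers stood at 38.3 to 42.7 CPM at 96 h, against 39.5 to 45.6 CPM in untreated cells, and the blood cell markers at 48.0 to 49.98 CPM at 96 h, against 51.2 to 53.7 CPM in untreated cells. The endothelial PECAM1 and CDH5 and the T-cell marker CD3E also had 0 counts throughout. The part of these marker shifts in the results for the 10 genes was not tested. In bulk RNA, a change in the share of cells and a change in RNA per cell cannot be told apart.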

How the data were processed

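The libraries came from polyadenylated RNA and a stranded kit, per the labels' protocols. The submitters' processing notes name STAR 2.5.3a, HOMER and hg19. Strand setting and filters are not given in the sources used here. The authors deposited raw counts per gene, and columns were matched to samples through the sample titles. The table held 0 genes of the mitochondrial chromosome, so transcripts of mtDNA were not analysed here. Gene length is the length column the authors deposited.

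The members, lists and tests were chosen with earlier results of these data known. edgeR 4.0.16 in R 4.3.3 was run on the counts of all 14 libraries with TMM factors (0.971 to 1.02), the default low-count filter of filterByExpr (count 10, total 15) and a robust quasi-likelihood fit with 1 mean per group. Tests were two-sided, and Benjamini-Hochberg adjustment covered all genes tested in a comparison. The SE is the absolute log2 fold change over the root of F. The fit was tested on simulated data. Libraries are separate biological replicates, per the study's design text.

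The opposite-strand index used 269 overlapping pairs of the table, of an abundant gene (at least 100 CPM) and a neighbour below 1% of it, with 753 to 1298 neighbour reads per library, and the sets lie on either side of its largest gap. Named genes were the 10 members, up to 3 called genes with the smallest p per list and comparison (or the 1 with the smallest p), and the 3 nearest profiles among genes averaging at least 1 log2 CPM (prior count 2). The 4 kinases, OMA1 and DELE1 were named outside that rule for their roles, and COL1A1 after its values were seen. ERO1A and GCN1 were matched through older symbols. Alternatives were median-ratio size factors, DESeq2 1.42.0, limma-voom (limma 3.58.1), no filter, only the compared groups, the replicate number as a block, a term for the library set, a nuclear RNA score (MALAT1, KCNQ1OT1, NEAT1 and MEG3, averaged as log2 CPM), and leaving out each library. An arm left with 1 library is assumed to vary like the other groups.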

Additional observations from a re-analysis of the deposited data

How the results depend on the processing

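For 96 h against untreated cells, 6 of the 10 genes were called with median-ratio size factors, DESeq2, limma-voom, no filter or the replicate number as a block, and all were the same 6; 8 were called with only the compared groups or with the nuclear RNA score (DDIT3 and CEBPB added), where calls over all genes were 1646 of 13025 and 1848 of 13371 against 759 of 13371, 2 with the library set as a term, and 5 to 6 without 1 library. For 96 h against 24 h the count was 5 to 7 under these alternatives, 0 with the library set as a term, and 3 to 7 without 1 library. For 72 h against untreated cells, where the count was 0, DESeq2 gave 1, no filter 2, the nuclear RNA score 4, and leaving out 1 library 0 to 1. For 96 h against 72 h, also 0, DESeq2 and the nuclear RNA score gave 2, limma-voom, no filter, only the compared groups and the replicate block 1 each, and leaving out 1 library 0 to 2. At 24 h and 48 h the count was 0 under every alternative run. At 72 h, calls over all genes numbered 24 in the main fit and 54 with DESeq2. They were 47 of 19324 with no filter and 243 with the nuclear RNA score. At 96 h against 24 h, 1087 genes were called with the nuclear RNA score and 37 with the library set, against 428. At 96 h against 72 h, 125 were called with DESeq2 and 252 with the nuclear RNA score, against 69. Same-numbered libraries did not deviate together (correlations -0.322 to 0.394 over the 6 comparisons), so the replicate number was not taken as a pairing. The cause of these differences was not tested.

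Values near 0 changed sign. With the library set as a term, ATF5 was 0.17 at 72 h, 0.084 at 96 h and 0.15 at 96 h against 24 h, CEBPB 0.23 at 72 h and ATF4 0.0018 at 48 h. CEBPB at 24 h was -0.00097 with median-ratio size factors, -0.0021 with DESeq2, -0.0051 with limma-voom, -0.00046 with no filter and -0.025 with the replicate block, and DDIT3 at 48 h was 0.019 with the block and 0.012 with the nuclear RNA score. Leaving out 1 library gave, at 24 h, -0.18 to 0.052 for ATF5, -0.092 to 0.11 for CEBPB and -0.042 to 0.056 for PPP1R15A; at 48 h, -0.056 to 0.032 for ATF4, -0.20 to 0.034 for ATF5, -0.13 to 0.10 for DDIT3, -0.016 to 0.27 for TRIB3, -0.066 to 0.041 for ASNS and -0.016 to 0.16 for CEBPB; at 72 h, -0.14 to 0.090 for ATF5 and -0.084 to 0.00078 for CEBPB; at 96 h, -0.23 to 0.00048 for ATF5 and -0.027 to 0.071 for PPP1R15A; -0.030 to 0.17 for DDIT3 at 96 h against 72 h; and -0.011 to 0.042 for PPP1R15A at 96 h against 24 h. No called value changed sign. With 48 to 117 reads per library, ATF3 had the widest SE of the 10.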
